A study of Mus musculus with 6 samples.

Results

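The genes described here are 45 classical type I interferon-stimulated genes, the antiviral and sensing genes that cells switch on when interferon alpha or beta reaches them. They were taken by gene symbol from a list of IFIT, OAS, MX, schlafen, PARP, RNA-sensor, ubiquitin-like and restriction-factor genes. That list was chosen with earlier results of these data known. All 45 are among the 19973 genes of the table. The samples are bulk RNA-seq libraries of peritoneal macrophages from male C57BL/6 mice, 3 from old animals of 18 months and 3 from young animals of 2 months. Every mouse had received 200 µg of zymosan A, a yeast cell-wall preparation that inflames the peritoneum, and cells were washed out 72 h later. The cells were cultured overnight in medium containing L-cell supernatant, unattached cells were washed off, and PBS was then given as the vehicle for 6 h, so the young controls carried zymosan, culture and vehicle as well. The labels do not settle whether the 3 libraries of an age are separate mice or repeat sequencing, so the p-values below reflect library-to-library spread, part or all of which could be technical.

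Type I interferons bind the receptor IFNAR1/IFNAR2, whose kinases JAK1 and TYK2 activate the transcription factor complex ISGF3, which contains STAT2 and IRF9 and binds the interferon-stimulated response element, a short DNA word with GAAA repeats, in front of target genes. The products act at many steps of infection: OAS enzymes and RIG-I-like helicases sense viral RNA, IFIT and MX proteins block viral RNA or particles, ISG15 is attached to proteins as a ubiquitin-like tag, and SAMHD1, viperin and CMPK2 act on nucleotides. Macrophages are known to keep a low tonic output of these genes through small amounts of interferon beta.

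Promoter windows from RefSeq (GRCm38.p6, 300 bases each, ending 50 bases past the transcription start) were found for 35 of the 45 genes, that is, for all except Oas2, Dhx58, Zbp1, Parp9, Parp14, Mx1, Mx2, Usp18, Rtp4 and Ifi27l2a. The core of the response element was searched as GAAA, any pair of bases and GAAA again, on both strands (TTTC in place of GAAA on the other), with overlapping copies allowed. It was present in 16 of the 35 genes (45.7%) and in 1079 of all 27025 genes with a window (3.99%). Among the members that were later called higher in old macrophages 7 of 17 held it, and among those that did not pass the test 8 of 16 did. A match describes letters only. The stretches below lie before the start and show the word in capitals, first in 4 genes that rose and then in 5 genes that did not pass or could not be tested, because the word was present on both sides of that division.
Oas3, chr5:120777705-120777754 (- strand): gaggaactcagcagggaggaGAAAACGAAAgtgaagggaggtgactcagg
Oas1a, chr5:120907526-120907565 (- strand): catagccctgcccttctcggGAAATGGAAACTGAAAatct
Oas1g, chr5:120887614-120887651 (- strand): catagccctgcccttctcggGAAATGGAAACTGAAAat
Rsad2, chr12:26456543-26456592 (- strand): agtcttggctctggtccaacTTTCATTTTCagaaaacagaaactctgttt
Ifit1, chr19:34640765-34640833 (+ strand): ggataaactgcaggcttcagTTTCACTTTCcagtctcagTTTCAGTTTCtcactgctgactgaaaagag
Ifit3, chr19:34583353-34583436 (+ strand): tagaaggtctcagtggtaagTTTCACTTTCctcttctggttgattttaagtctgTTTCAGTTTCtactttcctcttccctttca
Ifit3b, chr19:34607749-34607832 (+ strand): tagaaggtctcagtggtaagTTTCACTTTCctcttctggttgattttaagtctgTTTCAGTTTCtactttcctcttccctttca
Isg15, chr4:156200855-156200916 (- strand): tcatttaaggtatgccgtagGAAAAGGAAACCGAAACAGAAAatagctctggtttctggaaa
Bst2, chr8:71537567-71537622 (- strand): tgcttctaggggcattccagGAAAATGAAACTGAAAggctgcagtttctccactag
The Ifit3 and Ifit3b stretches are identical over all 84 bases (0 differing), and those of Oas1a and Oas1g over the 38 bases they share. Isg15 has overlapping copies of the word in a row, Ifit1 has separate copies on the opposite strand, and Oas3 has a single copy that begins 75 bases before the start.

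The libraries held 8163016 to 13007604 reads. On principal components of all tested genes, the first (71.5% of the variance) separated the ages, while the second (18.2%) set old replicate 3 and young replicate 3 apart in opposite directions, so results that rest on them are given with and without them. Both also lay nearer the other age on the first component. Old replicate 3 was at -26.2 (old replicates 1 and 2 at -46.2 and -46.1), and young replicate 3 at 30.7 (young replicates 1 and 2 at 45.1 and 42.7). The macrophage label was borne out by its markers: all 8, among them Lyz2, Csf1r and Adgre1, were present. Of them 6 of 8 were themselves higher in old libraries, such as Cd14 (1.86-fold) and Cd68 (1.69-fold), with a summed level of 345257 to 430483 normalized counts in old and 274834 to 349804 in young libraries. B cell markers stood higher in old libraries, with all 7 of 7 passing the test and a summed level of 1369 to 2944 against 51.8 to 59.3. Mast cell markers did so too, with 5 of 6 passing and sums of 534 to 605 against 38.2 to 62.5. T and NK cell markers summed to 34.3 to 51.3 against 4.23 to 9.05 and were all too low to test, with Ncr1 at 0 in every young library. Of 5 markers of plasmacytoid dendritic cells, a rich source of interferon, the sums were 1254 to 1313 in old and 1569 to 1645 in young libraries, nearly all from Tcf4, which fell, and Bst2, which is also a member. Among the other markers Siglech had at most 1 read in any library, Ccr9 had 10, 18 and 8 reads in old and 1, 4 and 2 in young libraries, and Pacsin1 had at most 8. Of 6 neutrophil markers 2 were in the table, and S100a9, Retnlg, Ly6g and Mpo were not. S100a8 was above the filter and rose, while Camp had 2 reads, both in young replicate 1. Of 4 eosinophil markers 2 were in the table, with sums of 8.89 to 16.2 in old and 6.04 to 14.9 in young libraries. Among old libraries, the B cell and macrophage sums were the lowest in old replicate 3. The part of these cells and markers in the results was not tested. In bulk RNA, fewer cells of a type and less RNA per cell cannot be told apart.

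Many interferon-stimulated genes stood higher in old macrophages and none was called lower. At least 1 gene was called higher in 9 of 11 classes. How many classes of such sizes, 2 to 6 genes, would hold 1 among all tested genes was not computed. Of the 43 members that passed the filter of a mean of 10 normalized counts, 21 (48.8%) were higher in old libraries and 0 were lower at an adjusted p under 0.05 (limma, Benjamini-Hochberg over all 11795 tested genes). Over all tested genes 17.9% were called higher and 17.6% lower, 35.5% in either direction. The other 22 members did not pass, 15 with a positive and 7 with a negative estimate. The median difference over the 43 was 0.35 on the log2 scale against 0.00014 over all tested genes, and the range ran from -0.29 (Ifit2) to 2.15 (Oas3). Groups did not overlap, with all old values above all young ones, for 23 members, against 24.0% of all genes, and 1 member (Ifit2) lay wholly below, against 23.6%. A difference of at least 2-fold was called for 8 members, Oas3, Rtp4, Ifi27l2a, Oasl1, Slfn5, Zbp1, Lgals3bp and Oasl2, where 3.93% of all tested genes reached it. With both libraries numbered 3 left out, 25 members were called higher, while 59.0% of all genes then passed in either direction (30.3% higher). The summed level of the 45 genes was 26040 to 27210 normalized counts in old and 19000 to 20635 in young libraries, of which Ifitm3 and Lgals3bp made up 26.4% and 23.7%.

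**Figure D1:**
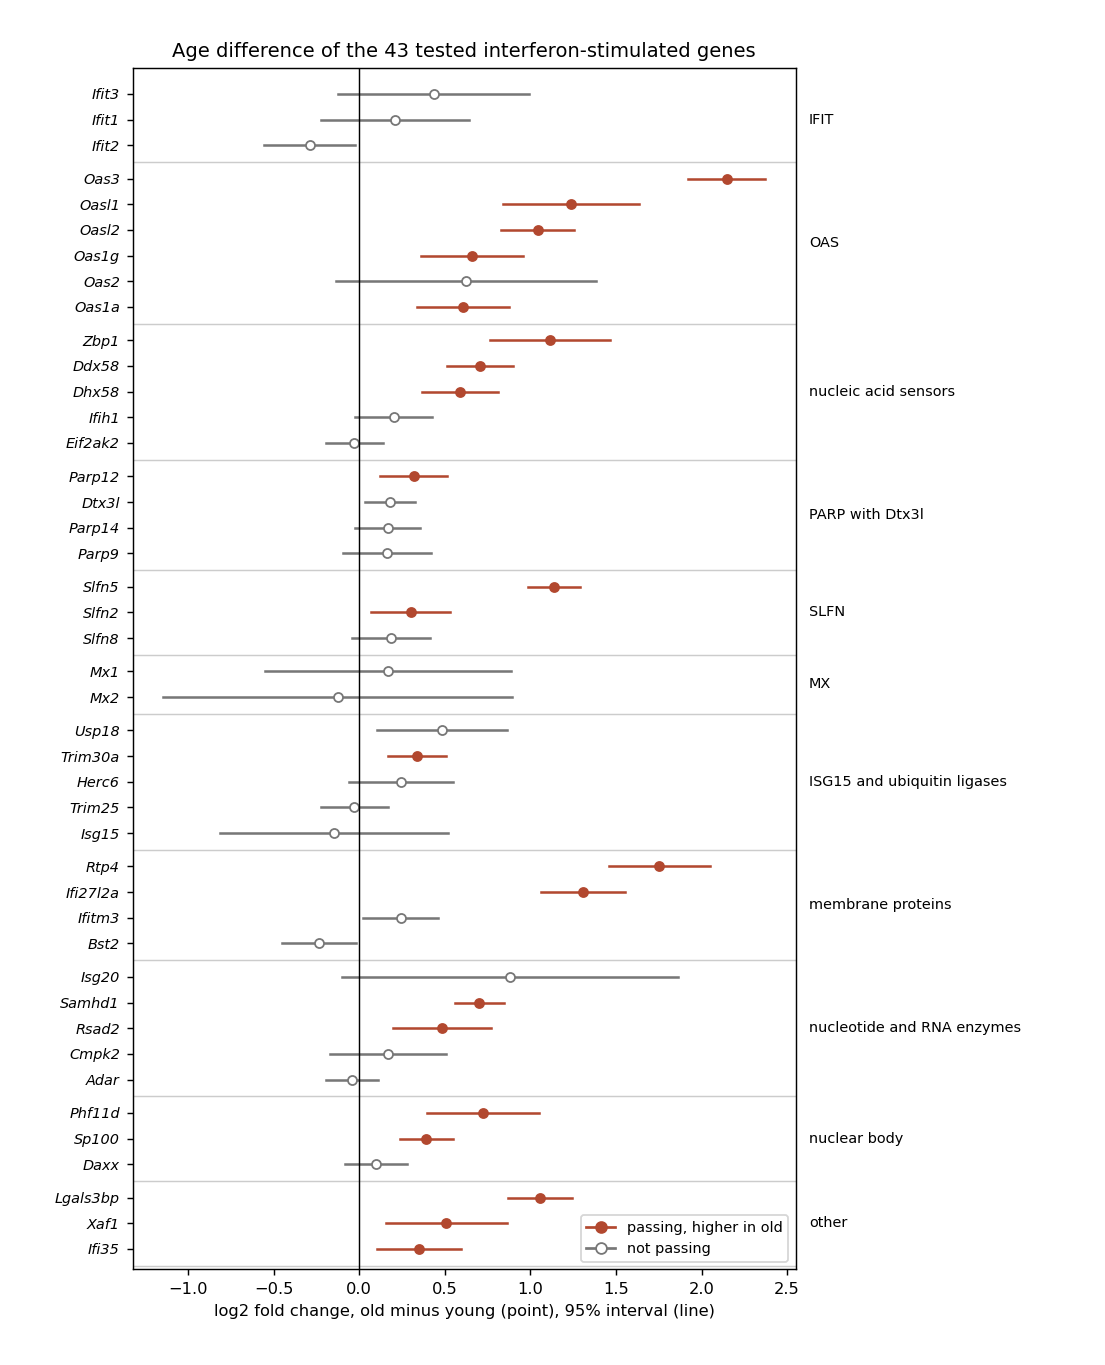
Log2 fold change (old minus young, log2 of normalized count plus 1) of the 43 tested interferon-stimulated genes by class, with 95% confidence intervals from limma. Filled points passed the test and open points did not; the estimates run from -0.29 (Ifit2) to 2.15 (Oas3), and no member was called lower.

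The oligoadenylate synthetases, enzymes that turn viral double-stranded RNA into a signal for RNase L, had the highest median log2 difference of the 11 classes, 0.85. In this class 5 of 6 tested members rose, beside 17.9% of all tested genes. Normalized counts of Oas3 were 517, 516 and 539 in the old and 134, 109 and 112 in the young libraries. Old libraries lay in a narrow band far above the young ones. Oas3, a large synthetase that senses long double-stranded RNA, was 4.44 times the young level in old libraries (log2 2.15 ± 0.10 SE, limma adjusted p = 5.08e-07). For Oasl1 the old libraries read 105, 121 and 94 normalized counts and the young ones 50.3, 48.3 and 36.3. Oasl2 had 366, 318 and 375 normalized counts in old libraries 1 to 3 and 174, 162 and 175 in young ones. Both OAS-like genes, whose human relative OASL binds RIG-I, were higher in every old library. Oasl1 was 2.38 times the young level in old libraries (log2 1.24 ± 0.18 SE, limma adjusted p = 0.000548), and Oasl2 was 2.07 times the young level in old libraries (log2 1.04 ± 0.10 SE, limma adjusted p = 3.23e-05). Normalized counts of Oas1a were 522, 451 and 424 in the old and 279, 284 and 358 in the young libraries. For Oas1g the old libraries read 109.9, 103 and 107 normalized counts and the young ones 74.4, 60.5 and 67.6. These neighbours also did not overlap between ages, at 1.52 times the young level in old libraries (log2 0.60 ± 0.12 SE, limma adjusted p = 0.00366) for Oas1a and 1.58 times the young level in old libraries (log2 0.66 ± 0.13 SE, limma adjusted p = 0.00412) for Oas1g. They share 57.6% (of Oas1a) and 45.2% (of Oas1g) of their 50-base words, so reads may be split between them by the counting. Oas2 had 141, 92.3 and 238 normalized counts in old libraries 1 to 3 and 128, 102 and 64.2 in young ones. Oas2 spread widely, with old replicate 3 the highest and young replicate 3 the lowest library. It was 1.6 times the young level (log2 0.62 ± 0.34 SE, limma adjusted p = 0.181), and its log2 difference was 0.00 with both of those libraries left out.

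**Figure D2:**
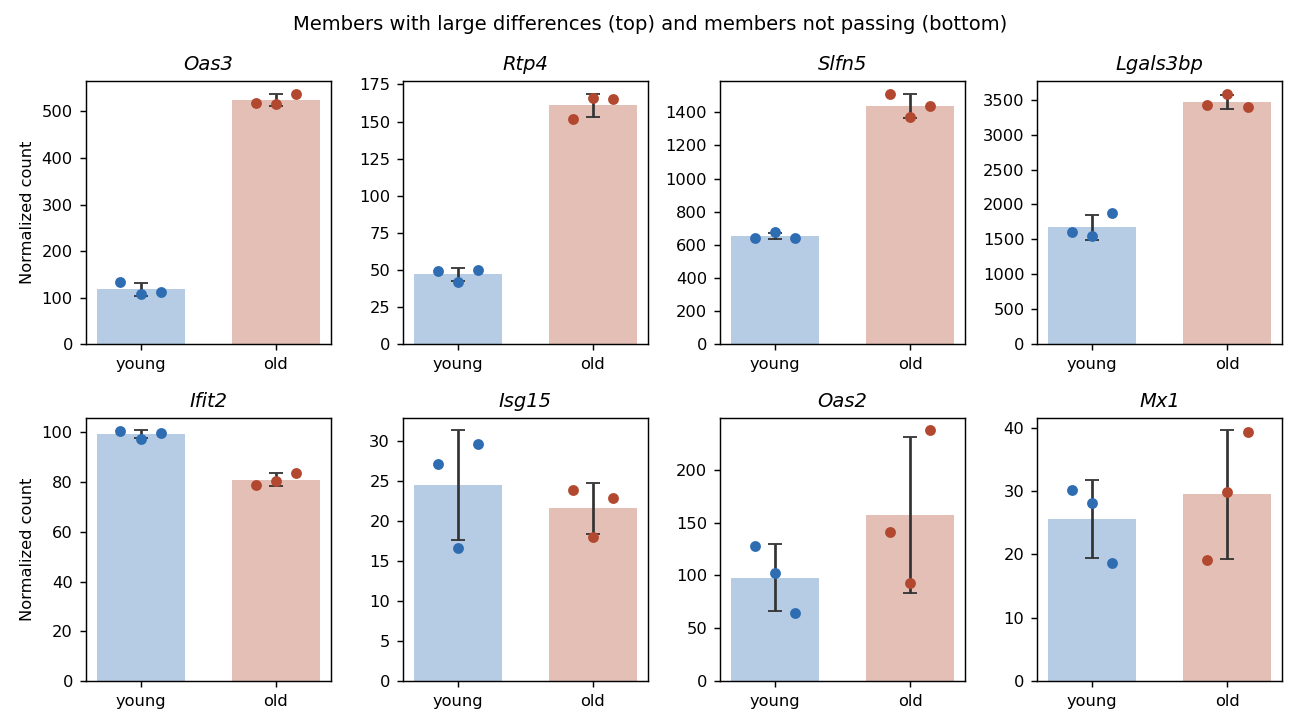
Normalized counts (linear axis) of selected members in each of the 3 old and 3 young libraries, with the mean as a bar and the SD as an error line. The Oas3 values of 516 to 539 in old libraries stand clear of 109 to 134 in young ones.

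Among cytosolic nucleic acid sensors 3 of 5 rose, with a median of 0.59, where 17.9% of all tested genes were called higher. Normalized counts of Ddx58 were 461, 473 and 434 in the old and 264, 271 and 304 in the young libraries. Ddx58 encodes RIG-I, the sensor of RNA with a 5′ triphosphate, and was 1.63 times the young level in old libraries (log2 0.71 ± 0.09 SE, limma adjusted p = 0.000201). For Dhx58 the old libraries read 271, 249 and 226 normalized counts and the young ones 159.9, 163 and 171. Dhx58 encodes LGP2, a helicase that modulates the other sensors, and was 1.51 times the young level in old libraries (log2 0.59 ± 0.10 SE, limma adjusted p = 0.0015). Zbp1 had 145, 115 and 159 normalized counts in old libraries 1 to 3 and 60.4, 58.8 and 71.8 in young ones. Zbp1, a sensor of Z-form nucleic acids that can start necroptosis, was 2.19 times the young level in old libraries (log2 1.11 ± 0.16 SE, limma adjusted p = 0.000498). All 3 lay above every young library. Normalized counts of Ifih1 were 462, 403 and 378 in the old and 334, 354 and 392 in the young libraries. Ifih1, which encodes MDA5, was 1.15 times the young level (log2 0.20 ± 0.10 SE, limma adjusted p = 0.146), and passed without old replicate 3 (limma adjusted p = 0.0395). Eif2ak2, encoding the RNA-activated kinase PKR, was at 496 ± 10.9 in old and 507 ± 28.5 normalized counts in young libraries (SD, n = 3; log2 difference -0.03, limma adjusted p = 0.786).

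The IFIT, MX and ISG15 genes, often read as the signature of interferon exposure, did not pass the test. For Ifit1 the old libraries read 53.8, 49.6 and 57.2 normalized counts and the young ones 39.2, 57.9 and 43.1. Ifit2 had 78.9, 80.3 and 83.8 normalized counts in old libraries 1 to 3 and 101, 97.4 and 99.7 in young ones. Ifit1, which binds foreign RNA caps, overlapped between ages, whereas all old values of Ifit2 lay below the young ones. Ifit1 was 1.14 times the young level (log2 0.21 ± 0.19 SE, limma adjusted p = 0.428). Ifit2 was 0.816 times the young level (log2 -0.29 ± 0.12 SE, limma adjusted p = 0.084), and was called lower only without the mean-variance trend (limma adjusted p = 0.02). Normalized counts of Ifit3 were 33.5, 34.2 and 41.9 in the old and 21.1, 35.1 and 25.4 in the young libraries. Ifit3 was 1.34 times the young level (log2 0.44 ± 0.25 SE, limma adjusted p = 0.202), and it shares 51.2% of its 50-base words with Ifit3b, which had 26 reads over the 6 libraries and was below the filter (exact two-sided permutation p = 0.7). Mx1, a gene of the dynamin-like GTPase family, was at 29.5 ± 10.1 in old and 25.6 ± 6.17 normalized counts in young libraries (SD, n = 3; log2 difference 0.17, limma adjusted p = 0.713). Mx2, annotated as a polymorphic pseudogene, was at 11.8 ± 6.67 in old and 11.7 ± 0.848 normalized counts in young libraries (SD, n = 3; log2 difference -0.13, limma adjusted p = 0.851). For Isg15 the old libraries read 23.9, 18 and 22.9 normalized counts and the young ones 27.2, 16.7 and 29.6. Isg15, the ubiquitin-like modifier itself, was 0.882 times the young level (log2 -0.14 ± 0.30 SE, limma adjusted p = 0.731). Precision differed with level: the 6 members with means of 10 to 60 normalized counts (Ifit1, Ifit3, Mx1, Mx2, Isg15 and Isg20) had a median standard error of 0.31, and 0 of 6 passed. From 60 to 200 normalized counts 7 of 12 passed (median standard error 0.15), from 200 to 600 it was 8 of 14 (0.10), and from 600 up 6 of 11 (0.084). Over all tested genes at any level 17.9% were called higher, and the share within each of these ranges was not computed. Whether level bears on the calls was not tested. Of the 22 members that did not pass, 19 had a 95% interval of the difference inside 2-fold in both directions, and Oas2, Mx2 and Isg20 did not.

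**Figure D3:**
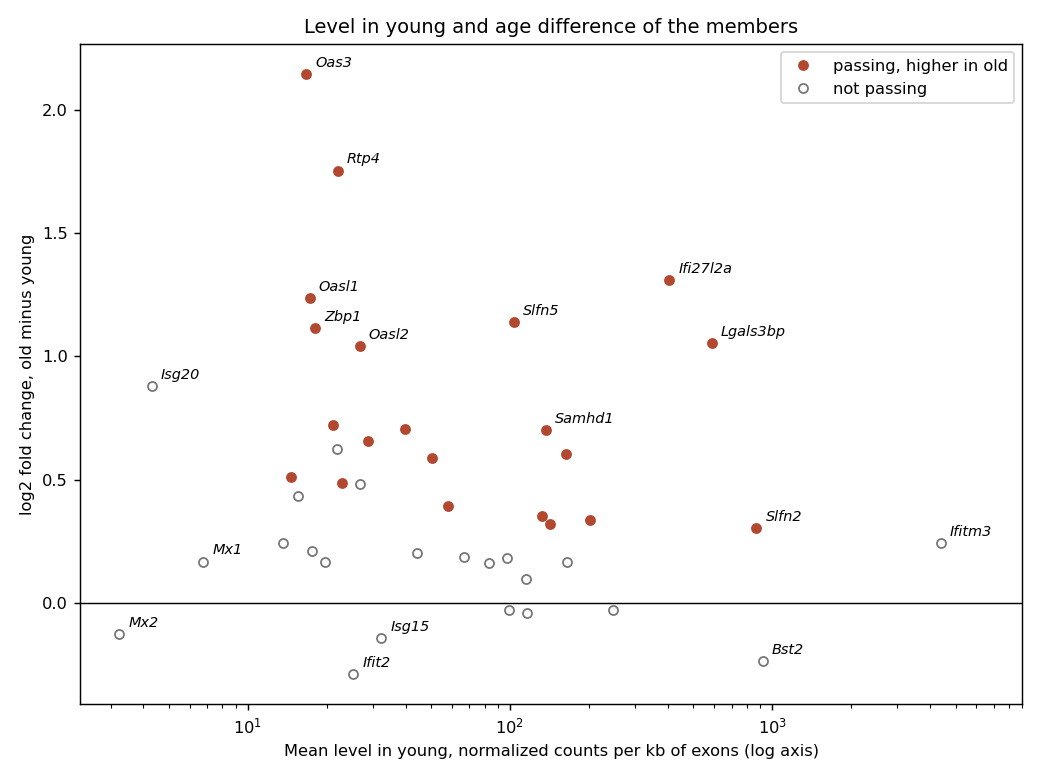
Level of each tested member in young libraries (normalized count per kilobase of exon, log axis) against its log2 fold change, old minus young. Called members lie at many levels, and Ifitm3 at 4386 and Mx2 at 3.24 per kilobase mark the ends of the range.

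Of the schlafens, a family that restrains growth and viral protein synthesis, 2 of 3 rose, beside 17.9% of all tested genes. Slfn5 had 1513, 1369 and 1438 normalized counts in old libraries 1 to 3 and 639.7, 677 and 642 in young ones. Slfn5, a nuclear member, was 2.2 times the young level in old libraries (log2 1.14 ± 0.07 SE, limma adjusted p = 1.93e-06), with all old values above all young ones. Normalized counts of Slfn2 were 1904, 1842 and 1600.3 in the old and 1309, 1380.2 and 1658 in the young libraries. Slfn2 was 1.23 times the young level in old libraries (log2 0.30 ± 0.10 SE, limma adjusted p = 0.0462), with young replicate 3 above old replicate 3. Its call was lost when old replicate 1 (adjusted p = 0.166), old replicate 2 (0.134), young replicate 1 (0.165) or young replicate 2 (0.155) was left out of the limma fit. Slfn8 was at 311 ± 28.4 in old and 274 ± 22.1 normalized counts in young libraries (SD, n = 3; log2 difference 0.18, limma adjusted p = 0.185). Among the PARP genes, which attach ADP-ribose to proteins, with the partner ligase Dtx3l, 1 of 4 rose, beside 17.9% of all tested genes. For Parp12 the old libraries read 778, 698 and 652 normalized counts and the young ones 577, 528 and 598. Parp12 was 1.25 times the young level in old libraries (log2 0.32 ± 0.09 SE, limma adjusted p = 0.0189), and lost its call without old replicate 1 (limma adjusted p = 0.0841), old replicate 2 (0.0501) or young replicate 2 (0.0928). Dtx3l had 627, 628 and 635 normalized counts in old libraries 1 to 3 and 543, 550.1 and 575 in young ones. Dtx3l did not overlap between ages but was 1.13 times the young level (log2 0.18 ± 0.07 SE, limma adjusted p = 0.0584), and it passed with both libraries numbered 3 left out (limma adjusted p = 0.0179). Parp9, its binding partner, was at 452 ± 48.8 in old and 405 ± 50 normalized counts in young libraries (SD, n = 3; log2 difference 0.16, limma adjusted p = 0.297) and passed with the same libraries left out (log2 0.27, limma adjusted p = 0.0208). Parp14 was at 1734 ± 176 in old and 1539.6 ± 62.6 normalized counts in young libraries (SD, n = 3; log2 difference 0.17, limma adjusted p = 0.152) and passed without old replicate 2 (limma adjusted p = 0.0474).

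Among ISG15-pathway and ubiquitin genes 1 of 5 rose, near the 17.9% of all tested genes. Normalized counts of Trim30a were 1114, 1052 and 993 in the old and 788, 827 and 886 in the young libraries. Trim30a, a tripartite-motif protein that dampens NF-kB signalling, was 1.26 times the young level in old libraries (log2 0.34 ± 0.07 SE, limma adjusted p = 0.00688). For Usp18 the old libraries read 112, 107 and 92.7 normalized counts and the young ones 90.5, 60.5 and 73.5. Usp18, which removes ISG15 and blocks the receptor, lay above the young values in every old library and was 1.39 times the young level (log2 0.48 ± 0.17 SE, limma adjusted p = 0.0515). It passed without old replicate 3 (limma adjusted p = 0.0196) or young replicate 1 (0.025). Herc6, the mouse ISG15 ligase, was at 151 ± 23.9 in old and 127 ± 9.29 normalized counts in young libraries (SD, n = 3; log2 difference 0.24, limma adjusted p = 0.193), and Trim25, a ligase acting on RIG-I, was at 1401 ± 149.8 in old and 1425 ± 69.7 normalized counts in young libraries (SD, n = 3; log2 difference -0.03, limma adjusted p = 0.826).

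Membrane-linked members diverged, with 2 of 4 higher, beside 17.9% of all tested genes. Rtp4 had 152, 166 and 165 normalized counts in old libraries 1 to 3 and 49.3, 42.1 and 49.9 in young ones. Rtp4, a receptor-transporting protein, was 3.42 times the young level in old libraries (log2 1.75 ± 0.13 SE, limma adjusted p = 8.47e-06), the second largest estimate among the members. Normalized counts of Ifi27l2a were 485, 513 and 406 in the old and 173, 187 and 204 in the young libraries. Ifi27l2a, a small mitochondrial membrane protein, was 2.49 times the young level in old libraries (log2 1.31 ± 0.11 SE, limma adjusted p = 1.83e-05). Both were far above the young range in every old library. For Ifitm3 the old libraries read 3779, 3654 and 3121 normalized counts and the young ones 2743, 2859 and 3319. Ifitm3, which blocks viral entry from endosomes, was the most abundant member per kilobase and was 1.18 times the young level (log2 0.24 ± 0.10 SE, limma adjusted p = 0.0839). It passed without old replicate 3 (limma adjusted p = 0.00614) or young replicate 3 (0.0301), and with DESeq2 (DESeq2 adjusted p = 0.0472). Bst2 had 688, 786 and 645 normalized counts in old libraries 1 to 3 and 784, 791 and 921 in young ones. Bst2, the tetherin that holds budding virus, was 0.85 times the young level (log2 -0.24 ± 0.10 SE, limma adjusted p = 0.0869), and was called lower without old replicate 2 (limma adjusted p = 0.0439).

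Enzymes acting on nucleotides or RNA rose in 2 of 5 cases, beside 17.9% of all tested genes. Normalized counts of Samhd1 were 1986, 2010.4 and 2109.6 in the old and 1297, 1241 and 1214 in the young libraries. Samhd1, which degrades deoxynucleotides, was 1.63 times the young level in old libraries (log2 0.70 ± 0.06 SE, limma adjusted p = 2.87e-05), without overlap. For Rsad2 the old libraries read 137, 129 and 151 normalized counts and the young ones 87.5, 102 and 109. Rsad2 encodes viperin, which makes a chain-terminating nucleotide, and was 1.4 times the young level in old libraries (log2 0.48 ± 0.13 SE, limma adjusted p = 0.0158). Its call was lost without old replicate 1 (limma adjusted p = 0.0502) or young replicate 1 (0.0583), and with DESeq2 (DESeq2 adjusted p = 0.0513). Cmpk2 was at 91.9 ± 9.21 in old and 82 ± 11.5 normalized counts in young libraries (SD, n = 3; log2 difference 0.17, limma adjusted p = 0.416), the RNA-editing enzyme Adar was at 914 ± 42.5 in old and 941 ± 26.4 normalized counts in young libraries (SD, n = 3; log2 difference -0.04, limma adjusted p = 0.644), and the exonuclease Isg20 was at 14.7 ± 2.08 in old and 8.02 ± 3.48 normalized counts in young libraries (SD, n = 3; log2 difference 0.88, limma adjusted p = 0.148).

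The nuclear proteins Sp100 and Phf11d rose and Daxx, at 387 ± 16 in old and 362 ± 22.2 normalized counts in young libraries (SD, n = 3; log2 difference 0.10, limma adjusted p = 0.381), did not pass. Sp100 had 556, 580.4 and 589 normalized counts in old libraries 1 to 3 and 426, 441 and 445 in young ones. Sp100, a nuclear body protein, was 1.31 times the young level in old libraries (log2 0.39 ± 0.07 SE, limma adjusted p = 0.00185). Normalized counts of Phf11d were 176, 177 and 127 in the old and 94.6, 94.8 and 97.2 in the young libraries. Phf11d was 1.67 times the young level in old libraries (log2 0.72 ± 0.14 SE, limma adjusted p = 0.00406), without overlap. Of the remaining members Lgals3bp, Ifi35 and Xaf1 rose. For Lgals3bp the old libraries read 3427, 3587 and 3389.8 normalized counts and the young ones 1599, 1543 and 1881. Lgals3bp, a secreted glycoprotein that binds galectins, was 2.07 times the young level in old libraries (log2 1.06 ± 0.08 SE, limma adjusted p = 1.24e-05). Ifi35 had 299.9, 286 and 287 normalized counts in old libraries 1 to 3 and 207, 215 and 266 in young ones. Ifi35 was 1.27 times the young level in old libraries (log2 0.35 ± 0.11 SE, limma adjusted p = 0.0316), and lost its call without old replicate 1 (limma adjusted p = 0.106), old replicate 2 (0.0747), young replicate 1 (0.115) or young replicate 2 (0.12). DESeq2 did not call Ifi35 either (DESeq2 adjusted p = 0.0668). Normalized counts of Xaf1 were 96.8, 94 and 102 in the old and 68.4, 81.6 and 56.6 in the young libraries. Xaf1, an antagonist of the apoptosis inhibitor XIAP, was 1.42 times the young level in old libraries (log2 0.51 ± 0.16 SE, limma adjusted p = 0.0319), and lost its call without old replicate 1 (limma adjusted p = 0.0866), old replicate 2 (0.0729), young replicate 1 (0.077) or young replicate 3 (0.09), and without both libraries numbered 3 (0.0814). Nor was Xaf1 called by DESeq2 (DESeq2 adjusted p = 0.105). Ifi44 had 22 reads over the 6 libraries and was below the filter (exact two-sided permutation p = 1).

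**Figure D4:**
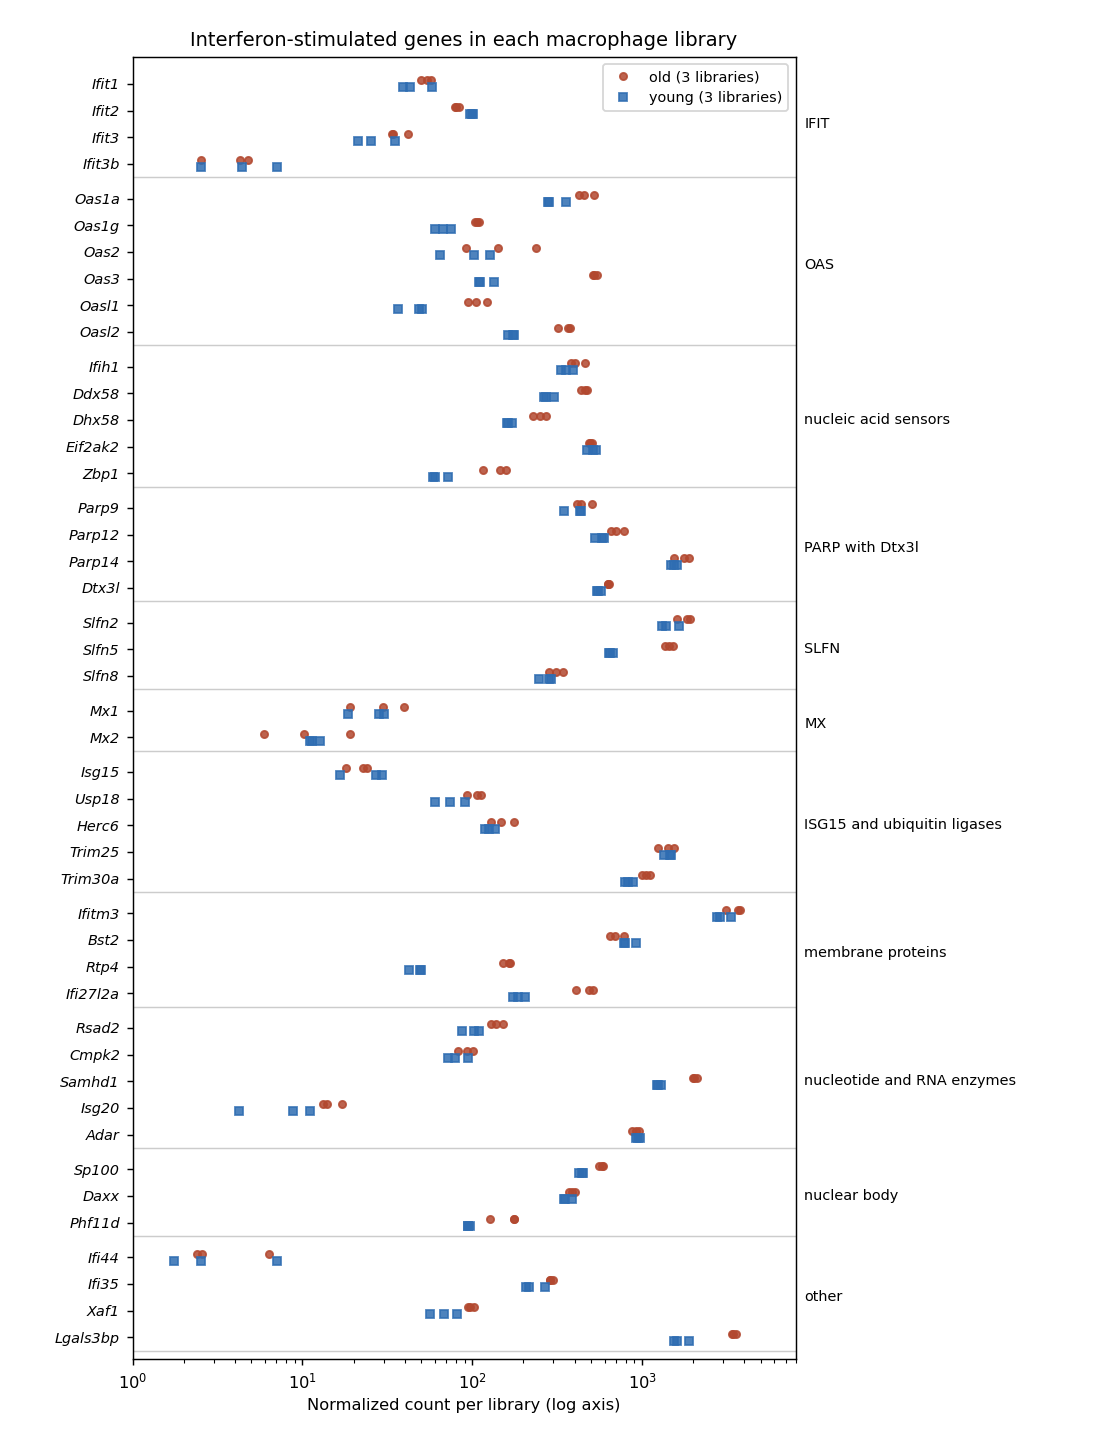
Normalized counts (log axis) of the members in each of the 3 old and 3 young libraries, by class. Values run from under 10 for Ifi44 and Ifit3b to 3779 for Ifitm3 in an old library.

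Neighbouring members had unlike estimates in several clusters. Of the 45 genes 18 lie in 6 clusters, and 7 adjacent pairs were compared by the log2 ratio of their normalized counts within each library. The pairs were picked after their values were seen, and with 3 against 3 libraries the exact two-sided permutation test cannot go below p = 0.1. Oas3 and Oas2, on chromosome 5, differed in their age difference by 1.52. Slfn5 and Slfn8, on chromosome 11, differed by 0.95, and Ifit3 and Ifit2, on chromosome 19, by 0.73. Rsad2 and Cmpk2, which lie head to head 12751 bases apart on chromosome 12, differed by 0.32. For these 4 pairs the ratios did not overlap between ages (exact permutation p = 0.1, 0.175 after Benjamini-Hochberg adjustment over the 7). The share of other gene pairs without overlap was not computed. Among single tested genes, 24.0% lay wholly higher in old libraries and 23.6% wholly lower. Oasl1 with Oasl2 (0.19, exact permutation p = 0.6), Oas1a with Oas1g (-0.05, p = 0.8) and Parp9 with Dtx3l (-0.02, p = 1) overlapped. Exons of 9 members, Oasl1, Dhx58, Eif2ak2, Parp9, Dtx3l, Slfn5, Usp18, Adar and Ifi35, overlap a gene on the opposite strand, and no source used here says whether the counting used strand.

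Upstream of these genes, 32 interferon, receptor, signalling and sensing genes were listed, and 24 were in the table. Of these 22 could be tested, of which 7 rose and 1 fell. The share that passed in either direction, 36.4%, is near the 35.5% of all tested genes. By direction, 31.8% were called higher and 1 of 22 lower, beside 17.9% and 17.6% of all tested genes. For Irf7 the old libraries read 799, 883 and 853 normalized counts and the young ones 154, 161 and 176. Irf7, the transcription factor that amplifies interferon production and is itself interferon-induced, was 5.17 times the young level in old libraries (log2 2.36 ± 0.08 SE, limma adjusted p = 1.06e-07), a larger estimate than that of any of the 45 members. Irf5 was 1.41 times the young level in old libraries (log2 0.50 ± 0.07 SE, limma adjusted p = 0.000396). Ifnar1 had 3819, 3661 and 3495 normalized counts in old libraries 1 to 3 and 2541, 2618 and 2777 in young ones. Ifnar1, a receptor chain, was 1.38 times the young level in old libraries (log2 0.47 ± 0.07 SE, limma adjusted p = 0.000617), and the kinase Jak1 was 1.24 times the young level in old libraries (log2 0.31 ± 0.06 SE, limma adjusted p = 0.00461). Myd88 (log2 0.33), Tbk1 (0.26) and the phosphatase Ptpn6 (0.52) rose as well. Normalized counts of Tmem173 were 122, 145 and 104 in the old and 208, 196 and 218 in the young libraries. Tmem173 encodes STING, the adaptor for cyclic dinucleotides made on cytosolic DNA. It was 0.597 times the young level (log2 -0.75 ± 0.13 SE, limma adjusted p = 0.00191), with every old value below every young one. Stat2, at 390.3 ± 81.3 in old and 431 ± 8.41 normalized counts in young libraries (SD, n = 3; log2 difference -0.16, limma adjusted p = 0.375), and Irf9, at 460.1 ± 47.9 in old and 408 ± 37.5 normalized counts in young libraries (SD, n = 3; log2 difference 0.17, limma adjusted p = 0.221), did not pass. The inhibitors Socs3 (0.25) and Pias1 (-0.02) did not pass either. With both libraries numbered 3 left out, 10 of the 22 genes were called higher and 4 lower, where 59.0% of all tested genes passed in either direction. Irf9 (log2 0.31, limma adjusted p = 0.00383) and Socs3 (0.39, 0.0137) were then called higher and Stat2 lower (-0.33, 0.00364). The type I interferon genes of the list were not found in the table by symbol and could not be tested.

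**Figure D5:**
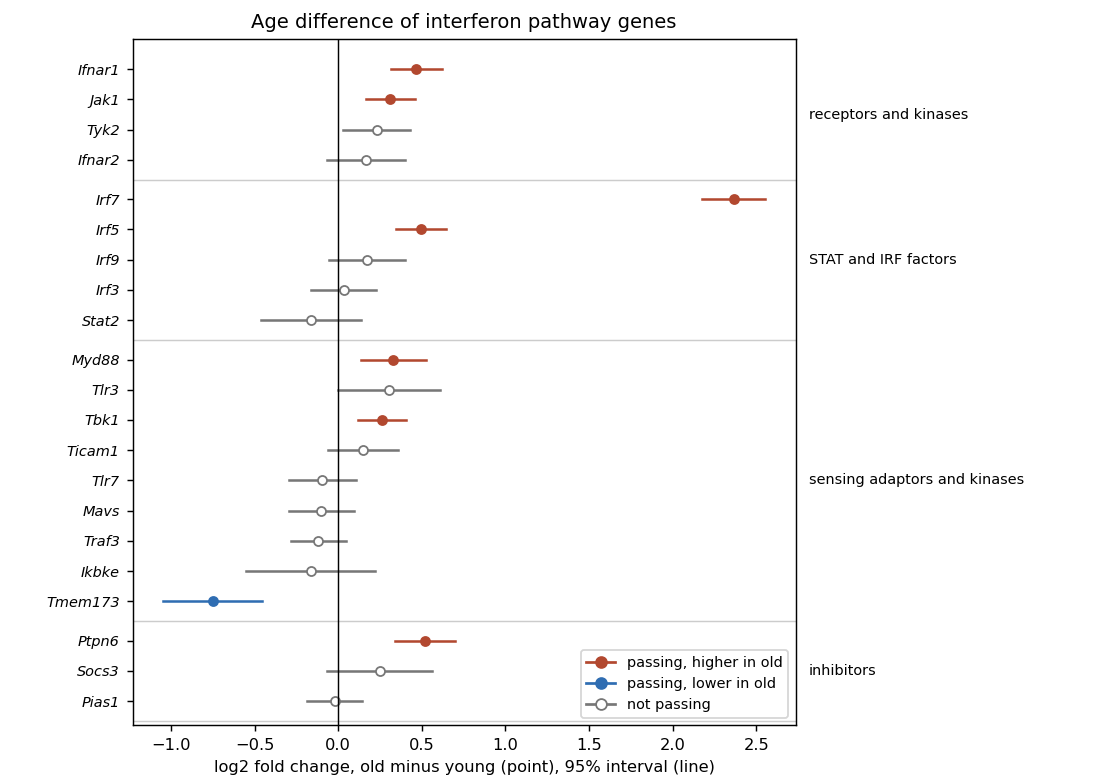
Log2 fold change (old minus young) of tested receptor, kinase, transcription factor, adaptor and inhibitor genes with 95% confidence intervals from limma. Irf7 at 2.36 is the highest and Tmem173 at -0.75 the lowest.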

How the data were processed

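RNA-seq of 6 libraries was analysed, 3 per age. The deposited values are a signal, gene counts divided by a DESeq2 size factor per library by the authors, with mm10 as the build, per the submitters' processing notes. The table holds genes kept by a filter whose rule, like the aligner and counter, no source used here gives. Dividing by the smallest step recovered whole reads for 100% of values within 0.01 reads. Symbols matched 19917 identifiers and 56 had none; positions are from GENCODE M21 (GRCm38). The test was limma 3.58.1 (R 4.3.3) with a mean-variance trend on log2(value + 1), for genes with a mean of at least 10, with Benjamini-Hochberg adjustment over 11795 genes at 0.05. Fold changes of low genes are understated on this scale. The method was tested on simulated data. Of 18 alternatives, edgeR 4.0.16 and DESeq2 1.42.0 used the recovered reads; others changed pseudocount, filter, scaling, variance model, replicate block or libraries. All 45 members are named; of the pathway list, genes that passed are named, and some that did not (Stat2, Irf9, Socs3, Pias1) were picked after their values were seen. A gene of the pathway list counted among those tested is not reported here. The members, gene lists and marker lists were chosen with earlier results of these data known.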

Additional observations from a re-analysis of the deposited data

How the results depend on the processing

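Of the 21 members called higher, 15 were called higher in all 18 alternatives, and 6 lost the call in at least 1 (Parp12, Slfn2, Trim30a, Rsad2, Ifi35 and Xaf1). The number of members called higher was 21 by edgeR, 19 by DESeq2, 15 with the replicate block, 25 without both libraries numbered 3, and 16 to 24 with any 1 library left out. Over all tested genes 4183 passed, 2643 with the replicate block, 6964 without both libraries numbered 3, and 2927 to 5685 with 1 library left out. Of the pathway genes 8 passed, 5 with the replicate block, 14 without both libraries numbered 3, and 6 to 11 with 1 library left out. Deviations of same-numbered libraries from the mean of their age correlated at -0.38, -0.36 and -0.68. Deviations centred within so few libraries depend on each other, so these values do not settle whether replicate numbers pair the libraries. Why fewer genes passed with the block was not tested. Trim30a lost its call only with the block (limma adjusted p = 0.0578). Estimates that changed sign were all uncalled: Eif2ak2 became 0.0072 with quantile normalization and ran from -0.073 to 0.0067 (without young replicate 2) as single libraries were left out. Mx1 ran from -0.065 (without old replicate 3) to 0.44, with -0.04 without young replicate 3, and was -0.27 without both. Mx2 became 0.11 with quantile normalization and ran from -0.52 to 0.24 (without old replicate 1), Isg15 ran from -0.39 to 0.0069 (without young replicate 3), and Trim25 from -0.10 to 0.055 (without old replicate 2). The cause was not tested. With 3 libraries per age, the tested members under 60 normalized counts had standard errors of 0.19 to 0.45 on the log2 scale. Those with 600 and more had 0.063 to 0.10.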
